A study of Mus musculus with 30 samples.

Results

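The ligands and receptors of the ErbB family were followed in the jejunum, the middle part of the small intestine, of mice given a single injection of a growth-promoting agent. The set holds 10 genes, the ligands Areg, Ereg, Hbegf, Btc, Tgfa, Epgn and Egf and the receptors Egfr, Erbb2 and Erbb3, listed by symbol. It was chosen with earlier results of these data known. For each gene the annotated probe with the highest mean over the 30 arrays was taken. A probe was found for 9 of the 10, and Areg is not analysed here. Ereg was left out of the tests because its probes never rose above background, so 8 of the 12890 genes tested belong to the set, 5 ligands and 3 receptors.

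ErbB ligands are made as membrane-anchored precursors and are released by metalloproteases. Egfr binds all of the ligands listed and pairs with Erbb2, which has no known ligand, or with Erbb3, which binds neuregulins and has a weak kinase of its own. In the intestinal epithelium the pathway supports the proliferation of crypt cells and the repair of the mucosa.

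RNA came from scrapings of the mucosa of a 2 cm length of jejunum. The donors were C57BL/6 males aged 11 to 12 weeks that had not been fasted, and the labels name no engineered allele. Each mouse received 1 intraperitoneal injection of PBS, 10 nmol/kg of exendin-4 (Ex-4, which activates the glucagon-like peptide 1 receptor) or 1 mg/kg of human recombinant Fgf7 (keratinocyte growth factor), and tissue was taken 1, 5 or 20 h later. This gave 9 groups, of 3 arrays at 1 h, 4 at 5 h and 3 at 20 h, each compared with the PBS group of the same time. Values are log2 signals of Illumina beadchips, which cannot be compared between probes. The dim level, which a share of 0.01 of background probes would exceed, was 7.19. In a scraping, fewer cells of a type and less RNA per cell cannot be told apart.

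The tested enterocyte markers, 10 of 12 listed, averaged 13.7 to 14.2 per array. The single probes of Fabp1 and Fabp2, which enterocytes express strongly, did not pass the filter and spanned 6.85 to 7.21 and 6.84 to 7.06, so a dim probe does not show that a transcript was missing. Smooth muscle markers, 14 of 15 tested, set 4 arrays apart. Their index, the mean log2 difference from each gene's average, was 1.89 in PBS replicate 3 at 1 h, 1.92 in PBS replicate 3 at 5 h, 0.85 in Ex-4 replicate 1 at 5 h and 1.13 in Fgf7 replicate 2 at 5 h. The other 26 arrays lay between -0.47 and 0.18.

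The start regions of Btc, the member that passed a test, of Egfr, its receptor, and of Erbb2, the partner of Egfr, are given from RefSeq on GRCm38.p6. Windows ran from 250 bases before to 50 after the start of the gene and were given for 7 of the 10 genes, among them these.
Btc, chr5:91402945-91403244, minus strand: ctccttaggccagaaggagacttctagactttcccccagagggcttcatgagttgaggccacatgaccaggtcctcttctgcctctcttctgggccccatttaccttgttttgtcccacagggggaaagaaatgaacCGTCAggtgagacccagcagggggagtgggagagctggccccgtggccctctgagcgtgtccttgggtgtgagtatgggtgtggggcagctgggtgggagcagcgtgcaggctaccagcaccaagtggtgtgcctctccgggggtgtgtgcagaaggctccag
Egfr, chr11:16751953-16752252, plus strand: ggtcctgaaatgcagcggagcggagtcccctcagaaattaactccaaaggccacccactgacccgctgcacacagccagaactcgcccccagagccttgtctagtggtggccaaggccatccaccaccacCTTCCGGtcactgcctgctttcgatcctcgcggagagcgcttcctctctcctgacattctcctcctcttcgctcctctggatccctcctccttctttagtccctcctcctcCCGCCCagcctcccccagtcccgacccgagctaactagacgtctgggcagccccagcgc
Erbb2, chr11:98412234-98412533, plus strand: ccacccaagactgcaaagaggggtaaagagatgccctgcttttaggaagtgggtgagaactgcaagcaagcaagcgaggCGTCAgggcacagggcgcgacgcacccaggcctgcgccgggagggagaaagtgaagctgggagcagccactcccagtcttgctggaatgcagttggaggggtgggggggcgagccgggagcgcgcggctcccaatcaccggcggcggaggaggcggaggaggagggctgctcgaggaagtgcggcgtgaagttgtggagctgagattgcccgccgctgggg
Capitals mark matches on either strand to the CRE core TGACG, the AP-1 site TGANTCA, the ETS site CCGGAAG, the E-box CACGTG, the GC box GGGCGG or the TATA box TATAAA. The Btc window held 1 match, a CRE core on the reverse strand 113 bases before the start. The Egfr window held an ETS site 120 bases and a GC box 9 bases before the start, and the Erbb2 window held a CRE core 171 bases before it, all on the reverse strand. These motifs are common, since 20.8% of all 32851 mouse windows of this length hold the CRE core, 8.86% the ETS site and 35.7% the GC box. The window of Btc was less rich in CpG pairs than those of the receptors, with 5 against 15 in Egfr and 21 in Erbb2, and the median window had 7. The matches describe letters in these windows and do not show that a factor binds.

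Btc, or betacellulin, a ligand of Egfr and Erbb4, was the member whose level passed the test, and it did so in 1 of the 128 tests made over the set (8 genes in 16 comparisons). Its log2 signal after Fgf7 at 20 h was 8.17, 7.93 and 7.94, and after Ex-4 it was 7.76, 7.62 and 7.75. The groups did not overlap, and PBS at 20 h lay with Ex-4, at 7.77, 7.86 and 7.64. The level after Ex-4 was 0.30 ± 0.07 (SE, n = 3 and 3) lower than after Fgf7 on the log2 scale, which is 1.24-fold, with a 95% interval of -0.45 to -0.16 and an adjusted p of 0.0203 in limma. In that comparison 1.79% of all genes passed, and the groups did not overlap for 13.6%.

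The call did not hold when only the arrays of both groups were fitted (adjusted p = 0.253), without Ex-4 replicate 2 (difference -0.26, adjusted p = 0.129) or without Fgf7 replicate 1 (difference -0.23, adjusted p = 0.223). Markers of several cell types also differed between these groups. The goblet cell index, over 7 of 8 listed genes, was 0.11 to 0.31 after Fgf7 and 0.00 to 0.09 after Ex-4, and 5 of the 7 were lower after Ex-4 (median -0.20), of which Muc2, the main secreted mucin, passed. Paneth cell markers went the other way, with 6 of 6 higher after Ex-4 (median 0.43), as did 10 of 11 fibroblast and matrix markers (median 0.23), and 0 of these passed. The index ranges overlapped, at -0.20 to 0.56 after Ex-4 and -0.65 to -0.13 after Fgf7 for Paneth cells. For fibroblasts and matrix they were -0.33 to 0.17 and -0.43 to -0.25, and Ex-4 replicate 3 was the highest array in both lists. Of the enterocyte markers 7 of 10 were lower after Ex-4 (median -0.11), with index ranges that overlapped, and Lct, the lactase of the brush border, passed (-0.70, limma adjusted p = 0.00156). Of the enteroendocrine markers 6 of 8 were lower (median -0.07), and the hormone gene Cck passed (-0.61, limma adjusted p = 0.00327). Of the 4 tuft cell markers 2 were lower, and Trpm5, a cation channel, passed as higher (0.38, limma adjusted p = 0.0283). All 3 tested markers of T cells and intraepithelial lymphocytes (of 7 listed) were lower after Ex-4, with an index of -0.35 to -0.20 against -0.0020 to 0.096 after Fgf7, and 0 passed. Against PBS at 20 h, Lct passed as lower after Ex-4 and Trpm5 as higher. The goblet cell gene Clca1 also passed there as higher (0.61, limma adjusted p = 0.0291), with arrays that overlapped. The part of these cell types in the Btc difference was not tested.

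At 5 h Btc read 8.02, 8.01, 8.12 and 8.11 after Fgf7, 7.83, 7.96, 7.88 and 7.86 after PBS, and 7.93, 7.74, 7.85 and 7.83 after Ex-4. All 4 Fgf7 arrays were thus above all 8 others. Against PBS the difference after Fgf7 was 0.18 ± 0.06 (SE, n = 4 and 4, limma adjusted p = 0.379) at 5 h and 0.26 ± 0.07 (n = 3 and 3, adjusted p = 0.799) at 20 h, and neither passed. The arrays did not overlap in either case, which held for 3.27% of all genes at 5 h and for 9.27% at 20 h. Ex-4 against Fgf7 at 5 h gave -0.23 ± 0.06 (n = 4 and 4), above the threshold (limma adjusted p = 0.0999). Over all genes 0.574% passed there and 5.12% did not overlap.

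At 1 h Btc read 7.80, 7.60 and 7.87 after Fgf7, within or below the range of PBS (7.83 to 7.87) and Ex-4 (7.80 to 7.88). The Fgf7 effect at 5 h exceeded that at 1 h by 0.28 ± 0.10, which did not pass (adjusted p = 0.645 in limma). Ordered by mean, the 9 groups ran from 7.71 (Ex-4 at 20 h) to 8.07 (Fgf7 at 5 h). The widest step, 0.13, separated the Fgf7 groups at 5 and 20 h from the rest, against a median SD within groups of 0.077, and 2 of the 8 steps between neighbours exceeded that SD.

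**Figure D1:**
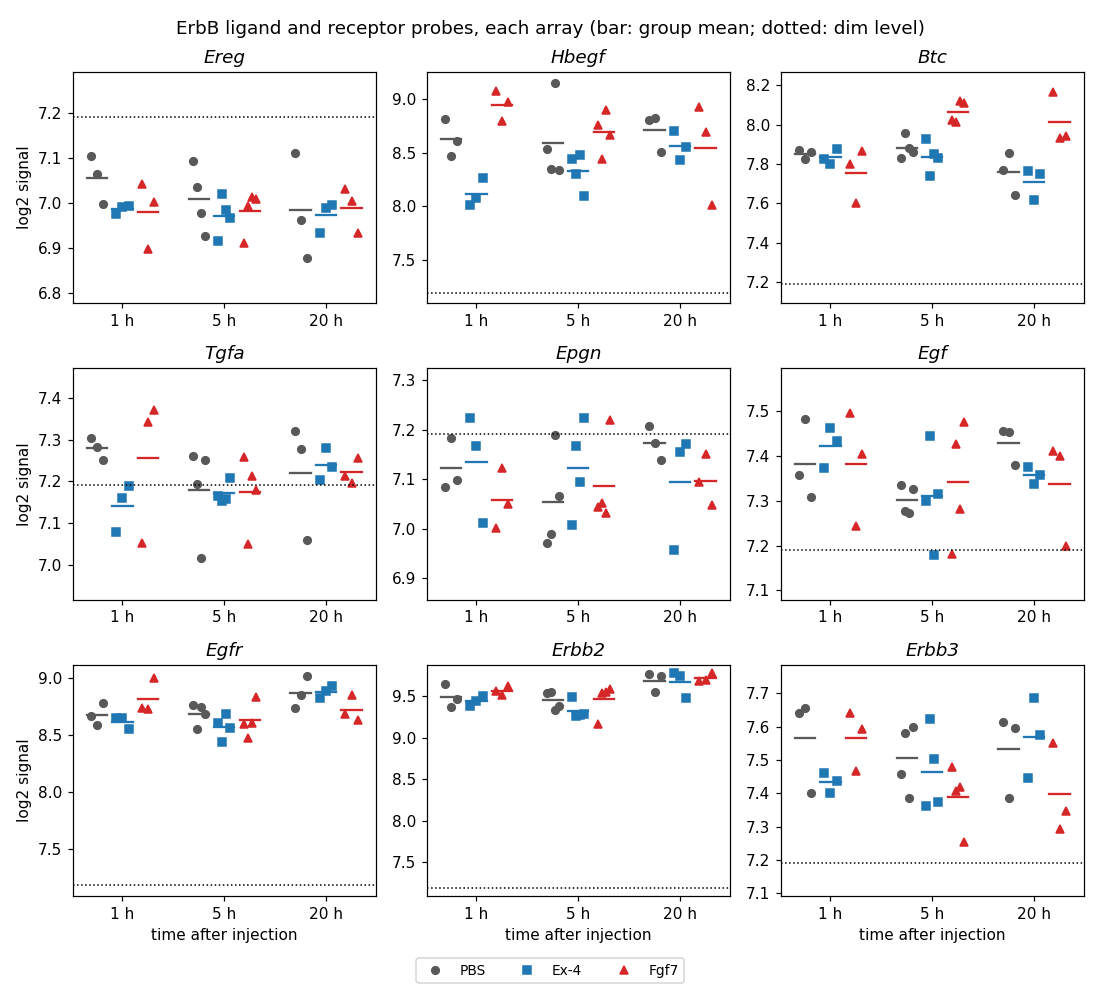
Log2 signal (vertical axis, with a scale of its own in each panel) against time after injection for the 9 genes with a probe; points are single arrays, bars group means, and the dotted line the dim level of 7.19. The Btc group means are highest after Fgf7 at 5 and 20 h, the Hbegf group mean is lowest after Ex-4 at 1 h, and Ereg stays under the dim level.

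Hbegf, heparin-binding EGF-like growth factor, had the widest range of group means among the 6 ligands of the set with a probe, and none of its 16 comparisons passed. At 1 h it read 8.01, 8.07 and 8.27 after Ex-4, 8.82, 8.47 and 8.61 after PBS, and 9.08, 8.80 and 8.98 after Fgf7. The Ex-4 arrays were below all others of that time, and only Fgf7 and PBS overlapped. Ex-4 was 0.51 ± 0.19 lower than PBS (SE, n = 3 and 3, limma adjusted p = 1.00), with an interval of -0.90 to -0.12, and 69th of all genes by p. No gene passed there in limma (0%), while 372 had an unadjusted p under 0.05 and 9.91% did not overlap.

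Against Fgf7 at 1 h, Hbegf after Ex-4 was lower by a log2 difference of -0.83 ± 0.19, or 1.78-fold (interval -1.22 to -0.44). It was 7th by p, its limma adjusted p was 0.327, and 0.00776% of genes passed. It passed with only the arrays of both groups in the fit (adjusted p = 0.0462) and with a replicate block within each time, an alternative chosen after seeing the data (adjusted p = 0.0221). A second, dimmer Hbegf probe, above the dim level on 11 arrays, gave -0.18 ± 0.08 for Ex-4 against Fgf7 and -0.01 for Ex-4 against PBS.

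At 5 h Hbegf read 8.44, 8.30, 8.48 and 8.10 after Ex-4, 8.54, 8.35, 9.16 and 8.34 after PBS, and 8.76, 8.44, 8.90 and 8.66 after Fgf7. The PBS value of 9.16 belongs to the array with the highest smooth muscle index, 1.92. Other arrays of high index read 8.61 (PBS replicate 3 at 1 h), 8.44 (Ex-4 replicate 1 at 5 h) and 8.44 (Fgf7 replicate 2 at 5 h, the lowest of its group). Over the 30 arrays the Pearson r of Hbegf with that index was 0.19, and the part of that tissue in the value of 9.16 was not tested. Ex-4 was lower than Fgf7 by a log2 difference of -0.36 ± 0.16 (n = 4 and 4, limma adjusted p = 0.467), and the groups overlapped. The mean of both Hbegf probes gave -0.13. At 20 h the values were 8.71, 8.44 and 8.55 after Ex-4, 8.81, 8.83 and 8.51 after PBS and 8.92, 8.69 and 8.01 after Fgf7, with Fgf7 replicate 3 the lowest. Group means ran from 8.12 (Ex-4 at 1 h) to 8.95 (Fgf7 at 1 h), and 3 of the 8 steps exceeded the median SD of 0.176.

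The other ligands read close to background. Egf, the founding ligand of the family, lay between 7.18 and 7.49 and above the dim level on 28 arrays. Tgfa, a ligand of Egfr made by many epithelia, lay between 7.02 and 7.37 and above that level on 19 arrays. Epgn, or epigen, reached 7.22 and was above it on 4 arrays, and Ereg, or epiregulin, spanned 6.88 to 7.11 and was above it on 0. For Tgfa, Epgn and Egf the differences from PBS lay between -0.14 and 0.07 with limma adjusted p from 0.756 up, and folds at such levels understate any change. Tgfa after Ex-4 at 1 h (7.08, 7.16 and 7.19) was below PBS (7.30, 7.28 and 7.25), where 9.91% of all genes did not overlap. Egf after Ex-4 at 20 h (7.37, 7.34 and 7.36) was below PBS (7.45, 7.45 and 7.38), where 15.1% of all genes did not overlap.

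**Figure D2:**
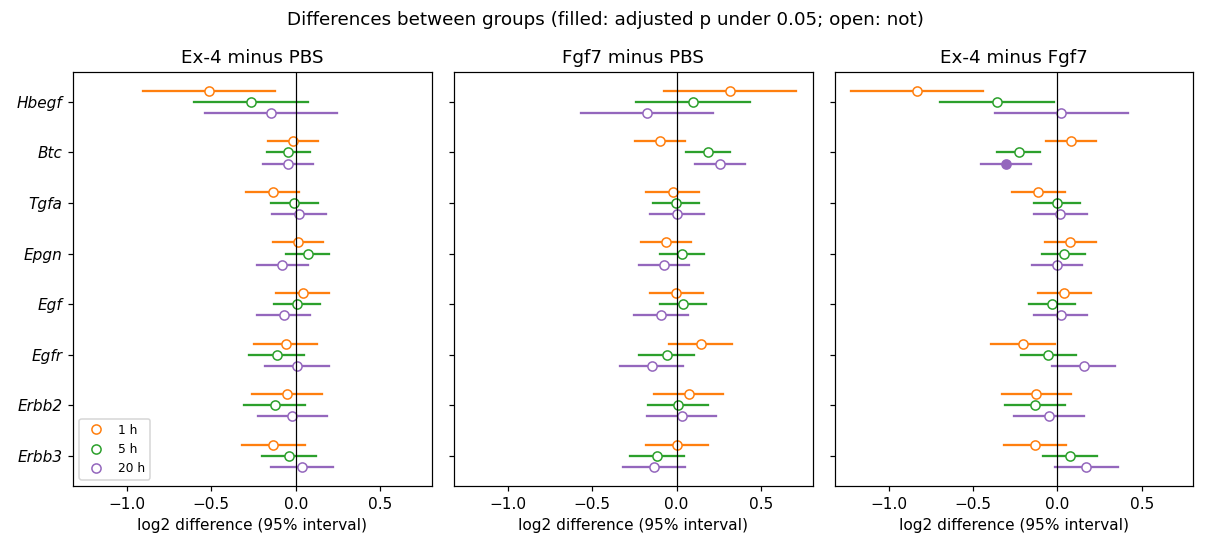
Log2 difference between groups (horizontal axis) with its 95% interval for the 8 genes tested, for Ex-4 minus PBS, Fgf7 minus PBS and Ex-4 minus Fgf7 at 1, 5 and 20 h. The single filled point, Btc for Ex-4 minus Fgf7 at 20 h (-0.30), passed; the widest open one is Hbegf at 1 h (-0.83).

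None of the 3 receptors passed in any comparison. Egfr, the receptor of the ligands above, read 8.65, 8.65 and 8.55 after Ex-4 at 1 h, 8.74, 8.72 and 8.998 after Fgf7, and 8.67, 8.59 and 8.78 after PBS. The Ex-4 and Fgf7 arrays did not overlap, and the difference was -0.20 ± 0.09 (SE, n = 3 and 3, limma adjusted p = 0.838). A second Egfr probe gave -0.18, and the other 3 that passed the filter gave 0.01 to 0.02. The mean over its probes gave -0.07. Erbb2 and Erbb3 did not overlap there either, with Ex-4 lower: 9.38 to 9.51 against 9.52 to 9.63 for Erbb2 and 7.40 to 7.46 against 7.47 to 7.64 for Erbb3. With Hbegf this makes 4 of the 8 genes tested, beside 13.4% of all genes. The nearest arrays of the groups were close, at 9.508 and 9.522 for Erbb2 and 7.462 and 7.467 for Erbb3. Of the 8 genes 2 had an unadjusted p under 0.05 in limma there, beside 5.74% of all genes, and 0 passed. Such a count is not given here for the other comparisons.

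**Figure D3:**
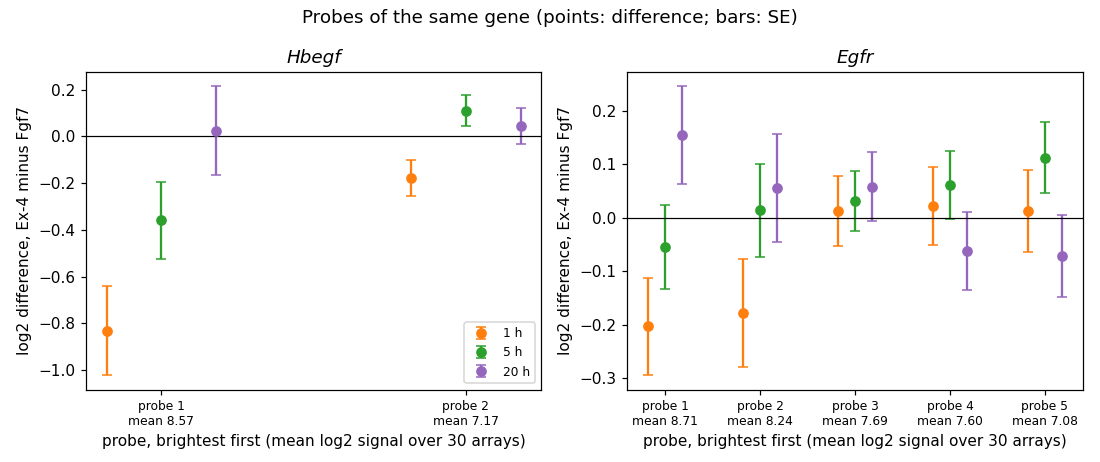
Log2 difference of Ex-4 minus Fgf7 (vertical axis, bars: SE) at 1, 5 and 20 h for each probe of Hbegf and Egfr that passed the filter, brightest probe first. At 1 h the brightest Hbegf probe gave -0.83 and its second -0.18, and 2 of the 5 Egfr probes lay below 0 by more than their SE.

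Against PBS, the differences of Egfr lay between -0.15 and 0.14, those of Erbb2 between -0.13 and 0.07 and those of Erbb3 between -0.13 and 0.04. Across the 6 comparisons with PBS, the lowest interval end was -0.34 and the highest 0.33 for Egfr. For Erbb2 these ends were -0.30 and 0.28, and for Erbb3 -0.32 and 0.22. The lowest and the highest end of a gene come from different comparisons. Over all 8 genes, 0 passed against PBS in each of the 6 comparisons. Over all genes, 0%, 0.915% and 2.35% passed after Ex-4 at 1, 5 and 20 h, and 0.00776%, 0.217% and 0.0465% after Fgf7. Samples of the same number could be paired for Fgf7 and PBS at 1 h and at 20 h, and with that block within each time 0 members passed, beside 2 genes at 1 h and 9 at 20 h in place of 1 and 6. The median of the 8 differences lay between -0.08 (Fgf7 at 20 h) and 0.02 (Fgf7 at 5 h), and that over all genes between 0.00 and 0.01.

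Among mice given PBS, Erbb2 and Egfr were higher at 20 h without passing. Erbb2 read 9.77, 9.55 and 9.75 at 20 h against 9.55, 9.55, 9.33 and 9.39 at 5 h, a difference of 0.24 ± 0.09 (SE, n = 3 and 4, limma adjusted p = 1.00). Egfr differed by 0.18 between the same groups and by 0.19 from 1 h, with an adjusted p of 1.00 in limma for both. With the mean over the Egfr probes these differences were 0.08 and 0.03. Of the 8 members 7 were higher at 20 h than at 5 h (median 0.12). Over all genes 0% passed in any of the 3 contrasts between PBS times (limma, 546 to 699 at an unadjusted p under 0.05), and from 5 to 20 h the median difference was 0.00. The 4 contrasts of an agent's effect between times gave no member that passed, with the lowest adjusted p 0.645 in limma. Over all genes 0.132% and 0.97% passed for Ex-4 (5 h against 1 h, and 20 h against 5 h) and 0% for both Fgf7 contrasts, where 945 and 476 had an unadjusted p under 0.05.

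The signal profiles most like each member over the 30 arrays are given as description, since arrays share groups. For Btc they were those of Bcas1 (Pearson r = 0.80), Maco1 (0.75) and Slc1a4 (0.71). For Hbegf they were Lrp6 (0.66), Fhdc1 (0.64) and Ahi1 (0.59). For Egfr they were Plxnb2 (0.74), Thra (0.68) and Dsg2 (0.68), for Erbb2 Stx12 (0.81), Tnfrsf11a (0.80) and Clip2 (0.79), and for Erbb3 Lrguk (0.60), Zfp457 (0.59) and Sirt3 (0.59). Egfr and Erbb2 correlated with r = 0.49 over the arrays and with r = 0.03 after the group means were removed.

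Among the neuregulins, which signal through Erbb3 and Erbb4, Nrg4 was well above background (7.77 to 8.82) on both of its probes. It read 7.78, 7.82 and 7.77 after Ex-4 at 20 h, below PBS (7.89, 8.38 and 8.23) and Fgf7 (8.17, 8.16 and 8.32). The difference from PBS was -0.38 ± 0.13 (SE, n = 3 and 3, limma adjusted p = 0.149), and that from Fgf7 was -0.43 (adjusted p = 0.0976 in limma), so neither passed. The arrays did not overlap in either case, which held for 15.1% of all genes against PBS and 13.6% against Fgf7. Nrg1 was above the dim level on 9 arrays and passed in no comparison. Erbb4 was above that level on 1 array and Nrg3 on 0.

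Genes around the receptors moved in few cases. None of the 13 genes of ligand shedding and trafficking tested (of 14 listed) and none of the 24 adaptors and ERK or PI3K components tested (of 35) passed against PBS. Among 17 feedback inhibitors tested (of 20), Dusp4, a phosphatase of MAP kinases, fell 1.25-fold after Ex-4 at 20 h (adjusted p = 0.0336 in limma), from 8.01, 8.17 and 8.17 to 7.79, 7.78 and 7.83. Among 14 genes of receptor endocytosis Eps8, an Egfr substrate, fell 1.46-fold in the same comparison (adjusted p = 0.0157 in limma), from 10.33, 10.44 and 10.19 to 10.03, 9.54 and 9.74. In that comparison 2.35% of all genes passed. The medians of these lists there were -0.05 and -0.01, and that over all genes was 0.01. Errfi1, an inhibitor that binds Egfr directly, was chosen after its values were seen. It differed from PBS by 0.31 after Ex-4 at 5 h and by -0.48 at 20 h, without passing at either time, and the difference between these effects passed (-0.80 ± 0.20, adjusted p = 0.0441 in limma).

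Of 22 genes induced by ERK signalling tested (of 24), 3 passed against PBS in at least 1 of the 6 comparisons. Taken singly, these comparisons had 0% to 2.35% of all genes passing. The share of all genes that passed in at least 1 of the 6 was not computed, so the count of 3 has no like share beside it. Egr1, an immediate-early transcription factor, rose after Fgf7 at 1 h from 9.22, 9.04 and 9.27 to 11.02, 10.98 and 11.49 (3.96-fold, limma adjusted p = 9.82e-05). It was the single gene that passed in that comparison. After Ex-4 at 1 h Egr1 read 9.98, 9.53 and 10.36, above the same PBS arrays, where 9.91% of all genes did not overlap. At 5 h it read 10.12, 9.34, 10.66 and 9.96 after Ex-4 and 9.06, 9.24, 9.45 and 9.51 after PBS. Neither difference after Ex-4 passed. Etv4, an ETS factor induced by ERK, rose after Fgf7 at 5 h and at 20 h, by log2 differences of 0.56 and 0.50 (limma adjusted p = 0.001 and 0.0161). No PBS array at 5 h was above the dim level, and against that level the rise at 5 h was at least 1.29-fold. Its 4 Fgf7 arrays at 5 h read 7.54 to 7.59 and those of PBS 6.98 to 7.05. Phlda1, an early growth factor target, rose 1.88-fold after Ex-4 at 5 h and fell 1.72-fold at 20 h (limma adjusted p = 0.00806 and 0.0334), and its effect differed between these times (-1.70, adjusted p = 0.000916 in limma). Glp1r, the receptor of Ex-4, was above the dim level on 0 arrays, and Fgfr2, whose epithelial form binds Fgf7, read 9.01 to 10.28. The endogenous Fgf7 transcript was above that level on 17 arrays.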

How the data were processed

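The values used are the log2 signals the authors deposited for 30 Illumina beadchips and 45281 probes. Their normalisation is not stated in any label or header used here. The largest SD over arrays at the same rank was 0.00218, which quantile normalisation would give. RNA was extracted with Trizol and labelled with a TotalPrep-96 kit, per the labels' protocols. Another table, with 60 columns headed by numbers that match no label, is not used here, so the planned neqc setting and detection filter were not run.

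Probes with 1 symbol (34885, against 18 with several and 10378 with none) were kept when above 7.19 on at least 3 arrays, and 20952 remained for 12890 genes. That level followed from the peak of the signal density (7.02) and the SD of values under the peak (0.0733). It was set from the deposited values. limma 3.58.1 in R 4.3.3 fitted 1 mean per group over all arrays (21 residual and 4.65 prior degrees of freedom), with Benjamini-Hochberg adjusted p over all genes and a threshold of 0.05. The code was tested on simulated data. Figures used matplotlib 3.10.9.

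The members, lists and tests were chosen with earlier results of these data known. Named genes are all members, up to 4 passing genes per list against PBS, the receptors of the agents, Fgf7, and the 3 genes most correlated with each bright member. Others named beside this rule were Muc2 and Cck, which passed for Ex-4 against Fgf7, and Errfi1, Nrg4, Nrg1, Nrg3, Erbb4, Fabp1 and Fabp2. The labels number replicates without saying what a number marks. Deviations from group means correlated above 0.1 in each same-numbered pair for Fgf7 and PBS at 1 h (r = 0.143 to 0.259) and at 20 h (0.216 to 0.615), and not in the other 7 group pairs. Nothing states that arrays are separate mice beyond their labels as separate samples, and p-values measure the spread between them. Precision is limited by the number of arrays. Alternatives left out arrays, changed the filter, probe choice, variance model or groups fitted, subtracted background, or added a replicate block or a smooth muscle covariate.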

Additional observations from a re-analysis of the deposited data

Results flagged for a closer look

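In 3 of 27 combinations of a member and a group of 4 arrays, all at 5 h, 1 array stood far from the rest. The rule was Dixon's criterion, which chance meets in about 1 of 20 groups. All members were read on the same arrays, so the combinations are not independent and that share does not test the count. Epgn in Fgf7 replicate 4 at 5 h read 7.22 against 7.05 for the next array. Erbb2 in Ex-4 replicate 1 at 5 h read 9.49 against 9.29, and this array is among those with a high smooth muscle index, 0.85. In other arrays of high index Erbb2 read 9.47 (PBS replicate 3 at 1 h), 9.33 (PBS replicate 3 at 5 h, the lowest of its group) and 9.54 (Fgf7 replicate 2 at 5 h). The part of smooth muscle was not tested. Erbb2 in Fgf7 replicate 1 at 5 h read 9.17 against 9.54 for the next array.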

How the results depend on the processing

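The number of members that passed was the same in 300 of 305 combinations of a comparison and an alternative. That number was 0 as reported in every comparison but Ex-4 against Fgf7 at 20 h, where it held in 14 of 17 alternatives. In comparisons where few or no genes passed at all, the number could hardly change. For Ex-4 against Fgf7 at 1 h it became 1, Hbegf, with only the arrays of the groups compared and with the replicate block within time, which was added after the data had been seen; the cause was not tested. For Ex-4 against Fgf7 at 20 h it became 0 with only the arrays of the groups compared, where fewer arrays estimate the spread, and it was 0 to 1 when 1 array was left out (0 without Ex-4 replicate 2 or Fgf7 replicate 1). The Btc difference there was below 0 in each of 17 alternatives, from -0.69 with background subtracted to -0.23, and passed in 14, with a smooth muscle covariate too (-0.31, adjusted p = 0.0230) and with the replicate block (limma adjusted p = 0.0178). The replicate block over all times changed no call of a member. The block within time changed only the call of Hbegf for Ex-4 against Fgf7 at 1 h. Hbegf against Fgf7 at 1 h ran from -1.31 with background subtracted to -0.51 with the mean of both probes. The other member differences with an unadjusted p under 0.05 as reported in limma kept their direction but not their size. Among the remaining member differences the sign changed in 140 combinations with an alternative, none of which passed. With background subtracted, Btc after Fgf7 against PBS was 0.38 at 5 h and 0.57 at 20 h, Btc after Ex-4 against Fgf7 at 5 h was -0.49, the Btc contrast of Fgf7 effects at 5 and 1 h was 0.63, and Hbegf after Ex-4 against PBS at 1 h was -0.85, or -0.26 with the mean of both probes and no subtraction. Genes passing over all genes varied by over 1.5 times, with 13 to 164 (118 as reported) for Ex-4 against PBS at 5 h, 76 to 427 (303) at 20 h, 3 to 80 (28) for Fgf7 against PBS at 5 h, 3 to 10 (6) at 20 h, 10 to 141 (74) for Ex-4 against Fgf7 at 5 h and 88 to 310 (231) at 20 h, the low ends with only the groups compared. For Ex-4 against Fgf7 at 1 h the range was 0 to 4 (1). The Ex-4 effect at 5 h against 1 h ran from 0 to 26 (17), with 0 when background was subtracted or without any 1 of Ex-4 replicates 2 and 3 at 1 h, Ex-4 replicate 3 at 5 h, PBS replicates 1 and 2 at 1 h and PBS replicate 3 at 5 h. That at 20 h against 5 h ran from 39 with only the groups compared to 235 without Ex-4 replicate 3 at 20 h (125). Signal over background limits Tgfa, Epgn, Egf and Ereg most.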
